A study of Mus musculus with 4 samples.

Results

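State 6 is a small group of microglia, the resident macrophages of the brain, that carried the transcripts of major histocompatibility complex (MHC) class II genes and of Ly6c2. Its members are the 130 cells that the authors' deposited cell table assigns to state 6, among 9077 microglia with a state and 15451 cells in all. The count table covers single-cell RNA-seq libraries of CD45+ cells sorted from the cortex of 18-month-old mice. The APP/PS1 group (AD) consists of mice of a transgenic line that deposits amyloid. The second group (ADAM) has APP/PS1 Axl-/- Mertk-/- mice of the same age, which lack the TAM receptor kinases Axl and Mertk. All 4 libraries therefore carry APP/PS1, there are 2 per genotype, and each pools 2 cortices, so p-values between genotypes measure the spread between such pools. State 6 numbered 45 cells for AD 1, 9 for AD 2, 29 for ADAM 1 and 47 for ADAM 2. The authors drew the states by clustering these same cells on their transcripts, so differences between states are given as a description with no test. The comparison sets are the 8947 microglia of the other states (states 0 to 5) and the 563 cells of the authors' Monocytes class.

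MHC class II molecules are heterodimers of an alpha and a beta chain that present peptides from endosomes to CD4+ T cells. Cd74, the invariant chain, guides newly made class II molecules to the endosome, and the H2-DM and H2-O proteins edit the bound peptide. Transcription of the class II chains depends on CIITA, a coactivator that binds a complex of RFX, CREB and NF-Y proteins assembled on a conserved promoter module, and it is induced in macrophages by interferon gamma. Resting microglia make little class II, whereas blood-derived macrophages and dendritic cells make more. Ly6c2 encodes a GPI-anchored surface protein of the Ly6 family that is widely used to recognise classical monocytes. Microglia near amyloid lose homeostatic genes such as P2ry12 and Tmem119 and gain a disease-associated (DAM) programme with Apoe, Cst7 and Spp1.

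Promoters of class II genes are shown because H2-Aa and H2-Eb1, which lead state 6, share one promoter layout. The letters GCAAC, which lie in the X box bound by RFX, followed within 60 bases by GATTGG, the Y box bound by NF-Y, were searched on either strand in the 250 bases before each gene start. Capitals mark the pair on the gene's strand in the windows below, which run 5′ to 3′ on the gene's strand over the last 148 to 150 bases before its start (RefSeq, build GRCm38.p6). The motifs do not overlap each other, and 1 further GATTGG match, on the opposite strand in H2-Eb1, is left in lower case.
H2-Aa, alpha chain, chr17:34287824-34287973, minus strand: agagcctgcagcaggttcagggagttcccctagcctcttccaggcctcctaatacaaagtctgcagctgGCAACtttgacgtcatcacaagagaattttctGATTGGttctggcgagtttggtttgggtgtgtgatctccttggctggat
H2-Eb1, beta chain, chr17:34305717-34305866, plus strand: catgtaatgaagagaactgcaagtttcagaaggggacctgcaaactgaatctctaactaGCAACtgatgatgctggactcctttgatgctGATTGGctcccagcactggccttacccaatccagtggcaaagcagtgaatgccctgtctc
H2-Ob, beta chain of H2-O, chr17:34238755-34238902, plus strand: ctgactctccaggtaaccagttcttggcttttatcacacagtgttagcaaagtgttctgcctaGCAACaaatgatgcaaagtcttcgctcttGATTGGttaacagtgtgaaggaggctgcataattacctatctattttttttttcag
GCAAC lay 81, 91 and 87 bases before the start in H2-Aa, H2-Eb1 and H2-Ob, and GATTGG followed after 27, 26 and 24 bases. Of the 10 class II chain genes listed, Cd74 included, 8 had a RefSeq window, and Cd74 and H2-Ab1 are named only. GATTGG was present in 8 of the 8 and the pair in 5 of the 8 (H2-Aa, H2-Eb1, H2-Eb2, H2-Oa and H2-Ob). Over all promoters, GATTGG occurred in 4783 of 32851 windows (14.6%) and the pair in 219 (0.667%). H2-Ob is included since it holds the layout while its level was not higher in state 6, at 34.5 against 37.3 CPM (counts-per-million of the UMIs of a set) in the other microglia.

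State 6 yielded 312872, 83181, 270701 and 452201 UMIs in AD 1, AD 2, ADAM 1 and ADAM 2 (a UMI marks 1 captured RNA molecule), and 4 values in a row follow this order throughout. Its cells had a median of 8072.5 UMIs and 2247 genes, against 5580 UMIs in the other microglia. Their median doublet score in the deposited cell table was 0.662, above 0.269 in state 0, 0.441 in state 5 and 0.354 in Monocytes, and the table marks 0 of the 130 as doublets. The library medians of that score were 0.420, 0.581, 0.667 and 0.819, and its part in the results was not tested except where given below. Of all 15451 cell barcodes, 48 occurred in more than 1 library, 1 of them in state 6. ADAM 2 stood apart in neutrophil transcripts, whose 12 listed genes summed to 825 CPM in its other microglia and 19.7 to 60.8 in those of the remaining libraries. In state 6 itself the sum was 28.8, 24.0, 29.6 and 495 CPM, and S100a8 had a UMI in 44 of 47 cells of ADAM 2 and in 1 cell of each other library. In the Monocytes class the same sum was 172, 2244, 4550.2 and 73965. AD 2 contributed only 9 cells, so its values carry the largest counting error.

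The classical class II chains were higher in state 6 than in the other microglia in every library. H2-Aa, the alpha chain of I-A, stood at 6919.8, 4737, 5552 and 6296 CPM and at 780.1, 301, 326 and 408 in the other microglia of the same libraries. Cd74 reached 14987, 13621, 14215 and 16557 CPM in state 6, with a mean of 14845 ± 1271 (SD, n = 4 libraries of both genotypes) against 1449 ± 561 in the other microglia. The state 6 libraries lay close together and above all 4 other-microglia sums for both genes. The log2 ratio of the mean levels of state 6 and the other microglia, with 10 CPM added to both and ± the SD of the 4 within-library ratios, was 3.67 ± 0.42 for H2-Aa, 3.77 ± 0.44 for H2-Eb1 (the beta chain of I-E), 3.35 ± 0.46 for Cd74 and 3.32 ± 0.38 for H2-Ab1 (the beta chain of I-A). Of the 8 class II chain genes with a mean of at least 10 CPM over the compared sets, 7 were higher in state 6 in 4 of 4 libraries and 0 lower, with a median log2 ratio of 2.45. Over all 7342 genes that passed this level, 13.4% were higher and 31.7% lower in every library, with a median log2 ratio of -0.14. Since the clustering used these genes, nothing is read from the difference between those shares.

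State 5 had the next highest mean of H2-Aa, H2-Eb1 and Cd74 among the microglia and lay well below state 6. H2-Aa was at 1548, 996, 909 and 854 CPM in state 5, at 166 CPM on average in state 4 and at 33.5 CPM in state 0, the largest state. The log2 ratios of state 6 over state 5 were 2.58 ± 0.33 for H2-Eb1, 2.44 ± 0.33 for H2-Aa and 2.15 ± 0.32 for Cd74, positive in 4 of 4 libraries. In Monocytes H2-Aa ranged widely, at 2795, 1067, 832 and 98.1 CPM, and Cd74 was at 8776, 3521, 2932 and 496. Each state 6 library exceeded the Monocytes of its own library, but the size of the gap differed, with log2 ratios of 2.28 ± 1.99 for H2-Aa and 1.91 ± 1.80 for Cd74. Without AD 1, whose Monocytes had the highest level, the H2-Aa ratio over Monocytes was 3.03, and without ADAM 2, whose Monocytes had the lowest, 1.87. The Macrophages class (379 cells) came nearer, with 3629.9 CPM of H2-Aa and 2888 CPM of H2-Eb1, the latter above the state 6 mean of 2599.9.

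**Figure D1:**
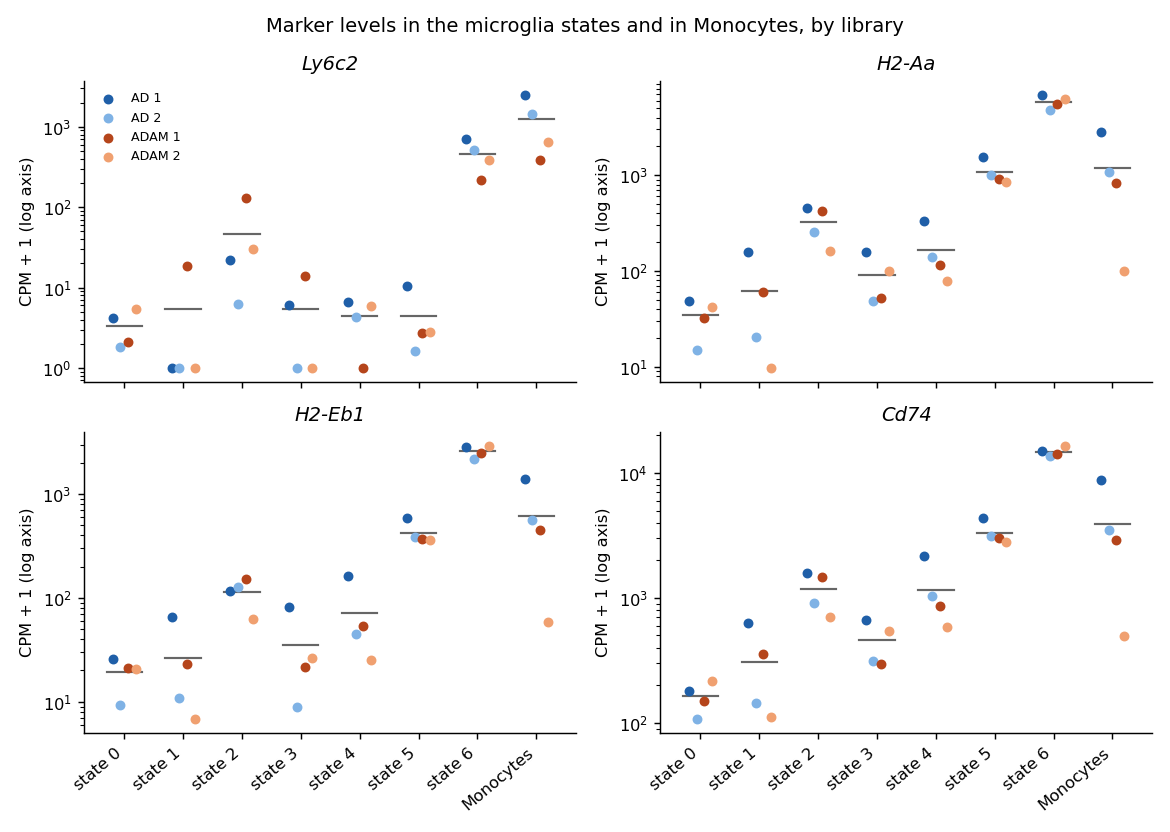
Levels of Ly6c2, H2-Aa, H2-Eb1 and Cd74 in CPM + 1 on a log axis (y) in each microglia state and in Monocytes (x). Each point is 1 library and each line the mean of the 4. State 6 has the highest mean of H2-Aa, H2-Eb1 and Cd74, whereas Ly6c2 is higher in Monocytes.

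Class II transcripts were detected in nearly every state 6 cell. H2-Aa and Cd74 each had at least 1 UMI in 130 of 130 state 6 cells, and H2-Eb1 in 123 (94.6%). In state 5 the share with H2-Aa was 57.6%, in Monocytes 32.5%, and in the T and NK class, where no class II is expected from resting cells, 3.52% at a median of 3296 UMIs. The summed UMIs of Cd74, H2-Aa, H2-Ab1 and H2-Eb1 had a median of 19938 CPM in single state 6 cells, with a range from 1112 to 137204. The median was 1710 in state 5 and 0 in state 0. Of the 2718 state 5 cells 149 (5.48%), and of the 563 Monocytes 44 (7.82%), reached the state 6 median. The cells of these sets thus overlapped in class II level.

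The rest of the class II machinery followed only in part. H2-Oa, the alpha chain of H2-O, was at 169 ± 33.7 CPM against 49.4 in the other microglia, a log2 ratio of 1.59 ± 0.29. The peptide editors H2-DMb1 and H2-DMa differed by less, with log2 ratios of 0.71 ± 0.30 and 0.59 ± 0.37. Ciita, the coactivator of the class II promoters, was at 3.2, 0, 7.39 and 11.1 CPM in state 6 with a mean of 1.29 in the other microglia, 36.5 in Monocytes and 55.7 in Macrophages. These levels rest on 8 UMIs in 7 cells of state 6 and were higher than in the other microglia in AD 1, ADAM 1 and ADAM 2 and 0 in AD 2. The RFX subunits Rfx5, Rfxap and Rfxank were at 2.46, 21.1 and 2.21 CPM in state 6 and at 9.67, 24.6 and 10.5 in the other microglia. Rfx5 and Rfxank thus rest on few of the 1118955 UMIs of state 6, and no ratio is read from them. Among proteases that act on the invariant chain or on antigen, Ctss was at 6068 ± 410.1 CPM against 7229.7 and Lgmn at 1126 ± 199 against 2270.2, a log2 ratio of -1.01. March1, a ubiquitin ligase that removes class II from the surface, was at 37.9 CPM against 87.2. Of the 8 loading and control genes that passed the level, 4 were higher and 3 lower in every library, beside 13.4% and 31.7% of all 7342 genes.

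Other antigen presentation genes showed a mixed picture. The MHC class I heavy chains H2-K1 and H2-D1 were at 1861 ± 295 and 2913 ± 184 CPM, with 877 and 1625 in the other microglia, log2 ratios of 1.08 ± 0.16 and 0.84 ± 0.12. B2m, the common light chain of class I, was lower at 2495 ± 243 against 3175 CPM. Of 21 class I genes that passed the level, 10 were higher and 3 lower in every library, beside 13.4% and 31.7% of all 7342 genes. The co-stimulatory molecules that accompany class II in professional antigen-presenting cells were mostly not higher. Cd86 was at 109.6 ± 28.2 CPM against 169, Cd83 at 62.9 against 113, and Cd80 at 17.1 against 7.85. Cd40 had no UMI in state 6. The 8 co-stimulatory genes that passed split into 2 higher and 4 lower, beside the same shares of all genes. The summed level of the list was 532 to 681 CPM in state 6 and 1038 to 1106 CPM in the other microglia.

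Ly6c2 was also far higher in state 6 than in the other microglia but was detected in a minority of its cells. Its levels were 706, 517, 214 and 383 CPM in state 6 and 6.41, 0.833, 4.02 and 3.66 in the other microglia, with no overlap, and the log2 ratio was 5.08 ± 0.73. Monocytes held 2508, 1446, 384 and 652 CPM, above state 6 in each library, for a log2 ratio of -1.44 ± 0.51. AD libraries were the higher of the pair of genotypes in both sets. At least 1 Ly6c2 UMI was found in 50 of 130 state 6 cells (38.5%, exact binomial interval 30.1 to 47.4%), in 53.1% of Monocytes, 1.73% of state 5 and 1.08% of state 0. T and NK cells, among which Ly6c2 is known to occur, had 29.6%. After every cell was thinned to 2000 UMIs, which left out 1 cell of state 6, 45 Monocytes, 73 cells of state 5 and 111 of state 0, the shares were 24.0% in state 6, 45.6% in Monocytes, 0.567% in state 5 and 0.381% in state 0. These intervals cover counting error only. The 495 Ly6c2 UMIs of state 6 were unevenly spread, since the 5 highest cells held 40% of them and 14 cells had 10 or more. In AD 2, 36 of 43 UMIs came from 1 cell.

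Ly6c1, whose transcript is 97.6% identical to that of Ly6c2 over 822 aligned bases with 20 mismatches, had 0 UMIs in state 6. Reads from such near-identical copies can be split or dropped by the authors' counting, so the Ly6c2 level is uncertain in that respect. Ly6c2 lies at chr15:75108158-75111970 on the minus strand of GRCm38. Ly6e, another GPI-anchored Ly6 protein that is common in immune cells, was at 1480.1 ± 268 CPM against 907 in other microglia. Ly6a and Ly6i were at 14.6 and 4.98 CPM, against 373 and 236 in Monocytes.

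Class II levels of the state 6 cells with and without a Ly6c2 UMI had no common order. H2-Aa was at 6154 CPM over the 50 cells with Ly6c2 and 6188 CPM over the 80 without, and Cd74 at 14829 and 15656, while the median cell was higher with Ly6c2, at 5706 against 4013 CPM for H2-Aa and 2422 against 1435 for H2-Eb1. By library, H2-Aa was at 7394, 5536, 6660.2 and 4964 CPM with Ly6c2 and 6530.1, 3644, 5017 and 7023 without. It was thus higher with Ly6c2 in 3 libraries and lower in ADAM 2. Cst7 was at 2966 and 2971 CPM and Trem2 at 5101 and 5333. The homeostatic genes Tmem119 and P2ry12 were lower over the cells with Ly6c2, at 32.0 against 172 CPM and 192 against 446. In AD 2 alone P2ry12 went the other way, at 166 CPM with Ly6c2 and 85.4 without. Ccr2, the chemokine receptor of classical monocytes, was at 11.4 and 2.93 CPM. Spp1 was at 6599.8 against 2679 CPM. By library it was at 3360, 291, 8215 and 10467 CPM with Ly6c2 and 2089, 2733, 1621 and 3679 without, so lower with Ly6c2 in AD 2. A single ADAM 2 cell held 1282 of the 4711 Spp1 UMIs of state 6. Slpi, a secreted protease inhibitor, was at 146 against 5.87 CPM, with a UMI in 16 of 130 cells. Except where values are given by library, cells were pooled over libraries here, the split was made on a measured gene, and no test was run. Median depths of 8280.5 and 8055 UMIs and doublet scores of 0.663 and 0.637 were close.

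**Figure D2:**
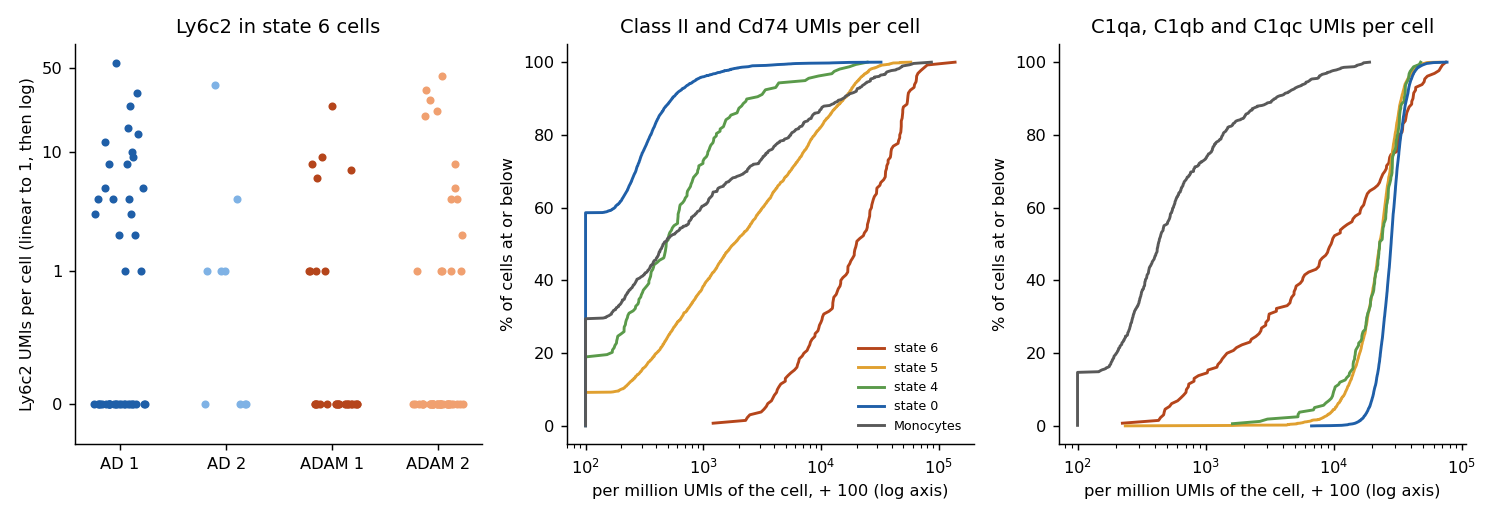
Per-cell values. Left, Ly6c2 UMIs of each state 6 cell (y, linear to 1 then log) by library (x). Middle and right, cumulative share of cells (y, percent) at or below a level of Cd74, H2-Aa, H2-Ab1 and H2-Eb1, or of C1qa, C1qb and C1qc, in CPM of the cell plus 100 (x, log axis). The class II curve of state 6 lies to the right of all others, and its C1q curve runs between Monocytes and the other states over its lower part.

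State 6 held Trem2 and Siglech far above Monocytes, while most genes of the homeostatic list, to which both belong, were lower than in the other microglia. Trem2, the lipid-sensing receptor needed for the DAM response, was at 5494, 5458, 4909 and 5228 CPM against 7362 in state 5 and 194 in Monocytes. Siglech, a sialic acid receptor of microglia, was at 891 ± 76.6 CPM, close to 838 in the other microglia and above 319 in state 5 and 30.8 in Monocytes. Both genes were far above their Monocyte level in every library. Tmem119 was lower, at 134, 96.2, 174 and 75.2 CPM against a mean of 577, as was the purinergic receptor P2ry12 at 329, 132, 495 and 309.6 against 1215. Both lay nearer to state 5, where they averaged 93.5 and 376 CPM, than to state 0 with 948 and 1896. Sall1, a transcription factor that defines microglia among brain macrophages, was at 47.4 ± 12.7 CPM, with 183 in other microglia and 8.09 in Monocytes. Of 20 homeostatic genes, 18 were lower and 0 higher than in the other microglia in every library, with a median log2 ratio of -1.21. Among all 7342 genes that passed the level, 31.7% were lower and 13.4% higher.

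The lowest ratios over the other microglia belonged to genes of varied function. Ecscr, a surface sialomucin, had a log2 ratio of -3.49 ± 0.26 and Ptgs1, which encodes cyclooxygenase-1, -3.02 ± 0.50. Mertk was at 51.1, 12, 55.4 and 44.2 CPM against a mean of 278, a ratio of -2.51 ± 0.81, and its ligand Gas6 had -2.37 ± 0.84. Other genes among the 10 lowest ratios were Gatm (-2.75), Adgrg1 (-2.58), Crybb1 (-2.49), Stab1 (-2.46) and Frmd4a (-2.46). Mertk and Gas6 were thus lower in state 6 than in the other microglia also in the AD libraries, where Mertk is intact. Cx3cr1, the fractalkine receptor, was at 796 ± 230.1 CPM against 2476, and Csf1r, the survival receptor of macrophages, at 906 ± 115 against 2095.

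State 6 held the DAM programme at a level between states 0 and 5. Cst7, a lysosomal protease inhibitor, was at 3008, 2272, 3007 and 3047 CPM, against means of 178 in state 0, 4999 in state 5 and 33.8 in Monocytes. Apoe, the lipid carrier, was at 23913 ± 8484 CPM with 4947 in state 0 and 36425 in state 5. Both genes exceeded their Monocyte level in 4 of 4 libraries, by log2 ratios of 6.02 ± 0.44 and 3.90 ± 0.81. Of 31 DAM genes, 28 were higher and 1 lower than in state 0 in every library (median log2 ratio 2.30, with 14.4% and 39.8% of all 7487 genes higher and lower). Against state 5 the list went the other way, with 3 higher and 18 lower (median -0.43, with 14.0% and 18.4% of 7091 genes). Itgax, which encodes the integrin CD11c and also marks dendritic cells, was at 92.7 ± 30.9 CPM against 598 in state 5, a log2 ratio of -2.57 ± 0.51. Ccl6 and Cd52 ran above state 5, at 2513 ± 92 against 1174 CPM and 3536 ± 583 against 1428. Ccl6 is a chemokine and Cd52 a small GPI-anchored glycoprotein of leukocytes.

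Across 7845 genes the log level profile of state 6 correlated most with state 5 (Pearson r = 0.955 over genes, on means of the 4 libraries), followed by state 4 (0.928) and state 3 (0.913). State 0 gave 0.867, the Macrophages class 0.875 and Monocytes 0.750. These values are across genes, which are not independent replicates, and all sets share the same 4 libraries. Sets with few cells, such as state 4 with 158, have noisier levels.

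Ccr2, Plac8 and Chil3, genes typical of monocytes, were at or near 0 in state 6, whereas some others of the monocyte list were not. Ccr2 was at 3.2, 12, 0 and 11.1 CPM, with a mean of 607 in Monocytes. Plac8, abundant in classical monocytes, had 3.38 CPM against 5449, and Chil3, a chitinase-like protein, 0.799 against 2606. In each library these 3 genes were lower in state 6 than in Monocytes. Lyz2, the lysozyme of myeloid cells, was at 1135 ± 129 CPM, below both the other microglia at 1998 and Monocytes at 13942. Against Monocytes, 0 of 21 monocyte genes were higher and 20 lower in every library (median log2 ratio -3.96, with 20.4% and 31.1% of all 7195 genes higher and lower). The summed level of the list was 1766 to 2691 CPM in state 6, 1890.2 to 2505 in the other microglia and 28705 to 42545 in Monocytes.

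Some genes of the monocyte list did stand above the other microglia in state 6. S100a6 and S100a4, small calcium-binding proteins, were at 325 ± 108 and 94.9 ± 42 CPM against 24.5 and 5.71, log2 ratios of 3.28 ± 1.06 and 2.74 ± 0.49. Their Monocyte levels were higher still, at 4276 and 1054 CPM. Fn1, fibronectin, was at 76.8 ± 13.7 CPM and Napsa, an aspartic protease, at 25.6, 24, 25.9 and 26.5, against 10.4 and 0.971 in other microglia and 605 and 671 in Monocytes. Of the 8 monocyte genes that passed the level against other microglia, 6 were higher, Ly6c2 among them, and 1 lower in 4 of 4 libraries. The shares among all 7342 genes were 13.4% higher and 31.7% lower. Ccr1, a receptor for Ccl3 and related chemokines, was at 68.3 ± 22 CPM against 3.49, with 97.8 in Monocytes.

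Some listed genes of other immune cells had no UMI in state 6. The border-associated macrophage genes Mrc1, Cd163, Lyve1, Cd38 and Siglec1 were at 0 in state 6, and the list summed to 120 to 281 CPM against 406 to 499 in the other microglia. The dendritic cell genes Flt3, Cd209a, Clec9a, Xcr1, Ccr7, Cacnb3, Ccl22 and Ccl17 were at 0, and that list summed to 2332 to 2742 CPM against 2700.0 to 3203. T cell genes summed to 3.69 to 12.8 CPM, with Cd3e, Cd3g, Cd8a, Trbc1, Trbc2, Cd2 and Il7r at 0. The B cell genes Ms4a1, Ebf1 and Pax5 were at 0, while the B cell list summed to 399 to 502 CPM against 223 to 243 in the other microglia. A gene at 0 here had no UMI among 1118955, which allows up to 3 UMIs.

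**Figure D3:**
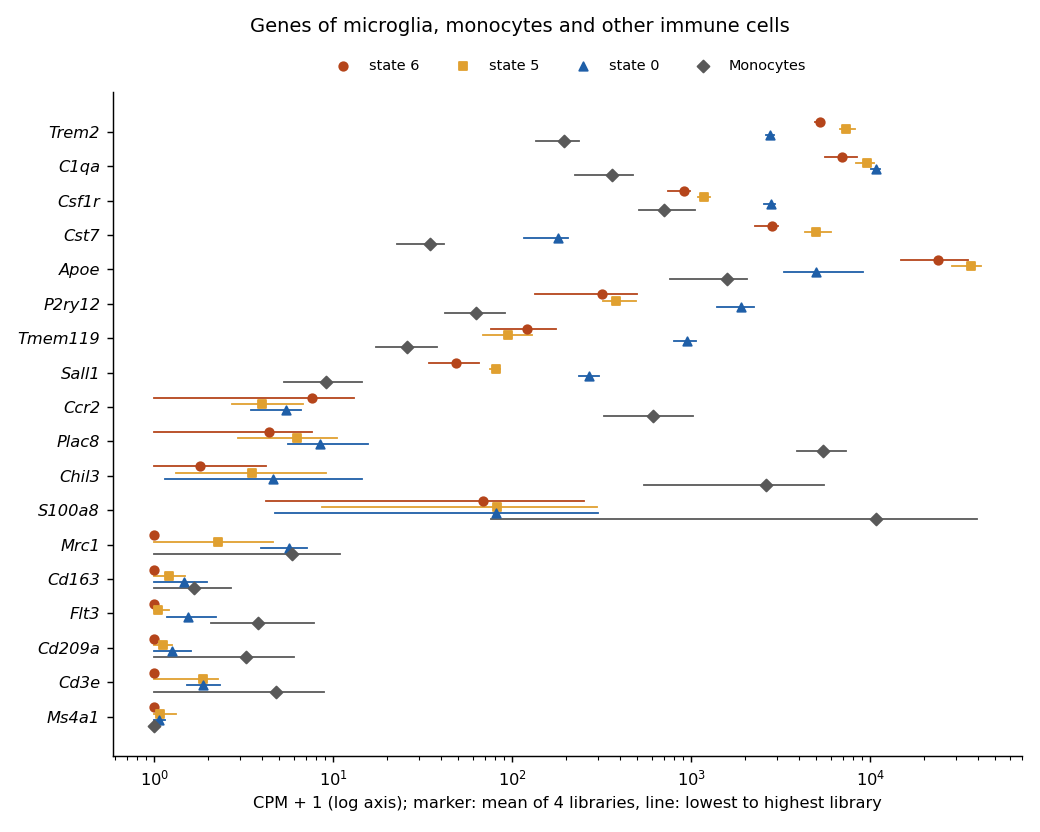
Levels in CPM + 1 (x, log axis) of genes of microglia, monocytes, border-associated macrophages, dendritic, T and B cells (y). Markers are means of 4 libraries and lines run from the lowest to the highest library. State 6 lies with states 0 and 5 for Trem2 and away from Monocytes for Ccr2, Plac8 and Chil3.

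Some cells held both Ly6c2 and microglial transcripts. Of the 130, 31 (23.8%, 16.8 to 32.1%) had both Ly6c2 and P2ry12, beside 50 with Ly6c2 and 88 with P2ry12 in all. Ccr2 had a UMI in just 5 cells, 3 of which also had Ly6c2, so this pair could not be frequent. The counts of the P2ry12 and Ccr2 pairs are therefore not comparable. P2ry12 was detected in 67.7% of state 6 cells, 99.0% of state 0, 22.4% of Monocytes and, as a measure of free RNA, 8.21% of T and NK cells. Among the 65 cells under the median doublet score of state 6, 13 (20%) had both Ly6c2 and P2ry12. After thinning to 2000 UMIs, 10 of 129 (7.75%) did. Leaving out each library gave 22.3 to 26.5%.

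Beyond the listed markers, the genes with the highest ratios over the other microglia came from several functions. Wfdc17, a secreted antiprotease-like protein of myeloid cells, was at 4219, 2957, 2065 and 2046 CPM against a mean of 237, with a log2 ratio of 3.52 ± 0.36. Cp, the ferroxidase ceruloplasmin, was at 184 ± 10.8 CPM against 7.17, and Rgs16, a regulator of G-protein signalling, at 125 ± 28.5 against 4.72. The log2 ratios of Cp and Rgs16 were 3.50 ± 0.19 and 3.19 ± 0.21. Anxa2, an annexin, S100a11 and Crip1 had ratios of 2.81 ± 0.36, 2.36 ± 0.34 and 1.92 ± 0.19. Klf4, a transcription factor required for monocyte differentiation, was at 226 ± 74.7 CPM against 35.4. Il4i1, an amino acid oxidase of antigen-presenting cells, was at 246 ± 90.8 against 49.3. It had a UMI in 62.3% of state 6 cells and 36.5% of state 5. Cp and Rgs16 had one in 58.5% and 47.7% of state 6 and 4.42% and 5.26% of state 5. Plp2, Ifitm2 and Fxyd5 completed the 20 highest ratios together with Cspg4, Cox6a2 and genes given above. In all, 17 genes had over 100 CPM in state 6, a ratio of means of at least 4-fold and a higher level in every library, and 17 to 19 when each library was left out in turn.

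Some of these genes were not shared with Monocytes. Cspg4, the NG2 proteoglycan, was at 188 ± 25 CPM in state 6, 30.9 in the other microglia and 0.762 in Monocytes. Cox6a2, a subunit of cytochrome c oxidase, was at 773 ± 263, 179 and 4.61 CPM in these sets. Both were also found in state 5. Cspg4 had a UMI in 61.5% of state 6 cells, 27.3% of state 5 and 1.26% of state 0, and Cox6a2 in 91.5%, 69.4% and 18.0%. The 10 highest ratios of state 6 over Monocytes were Cst7 (6.02), Cox6a2 (5.74), Syngr1 (5.29), Gpnmb (5.14), Cd63 (5.13), Spp1 (4.99), Igf1 (4.89), Serpine2 (4.72), Trem2 (4.69) and Ank (4.67), on the log2 scale. The 10 lowest were Plac8 (-8.67), Chil3 (-7.92), S100a8 (-7.11), Saa3 (-6.84), Klf2 (-6.54), Ifitm1 (-6.46), Ifitm6 (-6.31), Wfdc21 (-5.81), Anxa1 (-5.75) and Itga4 (-5.54). Those of Saa3, Ifitm1 and Wfdc21 rested on the Monocytes of ADAM 2 and were -3.32, -2.70 and -3.01 without that library. Genes that met the same 3 conditions against Monocytes numbered 123.

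Interferon target genes differed one by one. Of 18 interferon gamma targets that passed the level, 5 were higher and 3 lower than in the other microglia in every library, with a median log2 ratio of 0.07. Among all 7342 genes, 13.4% were higher and 31.7% lower, which is the background for each count in this paragraph. The transcription factor Irf1 was at 25.7 CPM against 31.6, and the GTPase Gbp2 at 11.9 against 6.72, with 186 in Monocytes. AW112010 was at 190.2 ± 27.1 CPM against 65.9, and the receptor chain Ifngr1 at 194 against 444. Of 22 type I interferon targets, 10 were higher and 1 lower. Ifi27l2a led them at 828 ± 129 CPM against 224, while Isg15 was at 31.1 against 41.8 and Ifit3 at 19.2 against 28.2. The type I list summed to 3558.5 to 4471 CPM in state 6 and 2118 to 2674 in the other microglia. In state 5 its sum was 1868 to 2029 CPM and in state 1 10897 to 12491. All S100 genes listed passed the level, and 5 of 8 were higher and 1 lower. Immediate early genes, which respond to tissue dissociation, were 4 higher and 12 lower of 24, with Jun at 803 CPM against 2208. Mki67, a marker of dividing cells, had no UMI.

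State 6 was not uniform in complement genes. The summed UMIs of C1qa, C1qb and C1qc, which encode the chains of the complement protein C1q and are abundant in microglia, had a median of 9494 CPM in single state 6 cells with quartiles of 2532 and 29983. The medians were 22689.5 in state 5, 27847 in state 0 and 327 in Monocytes. A level of 10166 CPM, the 5th percentile of state 5, was taken as a cut after the values were seen. Of the state 6 cells, 68 of 130 (52.3%) lay below it, against 5.0% of state 5, 0.124% of state 0 and 97.7% of Monocytes. The low cells numbered 25 of 45, 5 of 9, 9 of 29 and 29 of 47, and 20 cells lay within 1.5 times of the cut.

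The monocyte genes Ccr2 and Plac8 were low both in the 68 cells with little C1q, at 3.33 and 3.33 CPM, and in the 62 other cells, at 9.66 and 5.80. Ly6c2 had a UMI in 33 of the 68 low cells and 17 of the 62 others. Its level by library was 631, 767, 280.3 and 195 CPM in the low cells and 799.9, 124, 178 and 691 in the others, so it was higher in the low cells of AD 2 and ADAM 1 and lower in those of AD 1 and ADAM 2. Trem2 was at 5261 and 5221 CPM and Cst7 at 3144 and 2765. Class II was higher in the low cells, with H2-Aa at 8144 against 3886 CPM and Cd74 at 19208 against 10830.4. By library, H2-Aa was at 9315, 5936, 9447 and 7378 CPM in the low cells and 3964, 2848, 3401 and 4513 in the others, with no overlap. The class II difference thus appeared in each library. Over the pooled cells the homeostatic genes went the other way, with Tmem119 at 21.6 against 228 CPM and P2ry12 at 128 against 601. Rgs16 was at 186 against 65.7 CPM and Il4i1 at 314 against 143. Tmem119 and Rgs16 kept this direction in each library. In AD 2 P2ry12 was higher in the low cells, at 157 against 92.9 CPM, and Il4i1 lower, at 315 against 402. Median depth was 8235 and 7815.5 UMIs, and the median doublet score 0.565 in the low cells and 0.776 in the others. The part of the doublet score in these differences was not tested.

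A related pattern ran across all state 6 cells. Over the 130 cells, the class II level of a cell correlated with the summed DAM genes (Pearson r = 0.45, 0.37 to 0.61 within libraries) and inversely with the summed homeostatic genes (r = -0.49, -0.62 to -0.35). It had little relation to Ly6c2 (0.14) or to depth (0.14), while H2-Aa and H2-Eb1 varied together (0.90). The cells share libraries, and both sums are shares of the same UMI total, so these values are a description.

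The share of state 6 among microglia varied as much within a genotype as between genotypes. It was 2.81% of 1600 microglia with a state in AD 1 (exact binomial interval 2.06 to 3.75%), 0.290% of 3100 in AD 2 (0.133 to 0.550%), 1.25% of 2317 in ADAM 1 (0.840 to 1.79%) and 2.28% of 2060 in ADAM 2 (1.68 to 3.02%). The highest and the lowest share were both in AD. The means were 1.55% ± 1.78 (SD, n = 2) in AD and 1.77% ± 0.728 in ADAM. On the cell numbers, edgeR gave a log2 difference of ADAM over AD of 0.23 (SE 0.92, adjusted p = 0.807 over the 7 states). The exact two-sided permutation test gave p = 1, and with 2 against 2 libraries it cannot go below 0.33. A difference between genotypes was not detectable, and without AD 2 the log2 difference was -0.68, and without AD 1 it was 2.58.

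**Figure D4:**
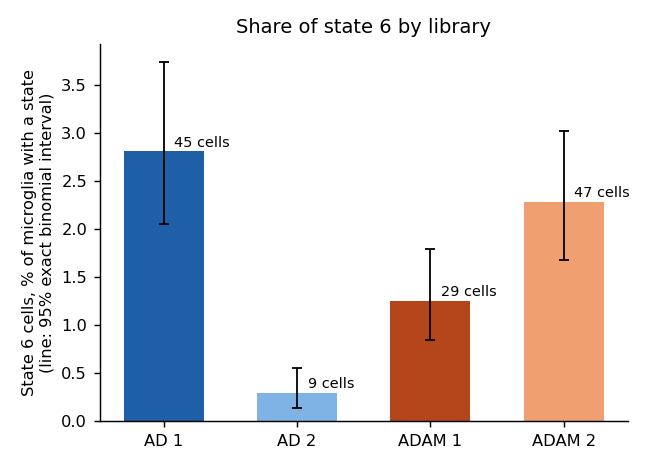
State 6 cells as a percentage of microglia with a state (y) in each library (x). Bars are shares, lines 95% exact binomial intervals that cover counting error only. AD 1 with 2.81% and AD 2 with 0.290% bracket both ADAM libraries.

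Of the 2 targeted genes, Axl was lower in the ADAM libraries of state 6 and Mertk was not called. Axl, the receptor kinase that DAM cells induce, was at 147, 108, 0 and 11.1 CPM, with both AD libraries above both ADAM libraries. These are 55 UMIs in AD and 5 in ADAM, a ratio of 20.1 (exact counting interval 8.10 to 64.3), and ADAM over AD on the log2 scale came to -4.22 (SE 0.55, edgeR quasi-likelihood test with Benjamini-Hochberg adjustment, adjusted p = 0.00209). Mertk was at 51.1, 12, 55.4 and 44.2 CPM and its log2 fold was 0.21 (SE 0.45, edgeR adjusted p = 0.999). Transcripts of a knocked-out gene can still be counted at their 3′ end, and the labels do not say which part of Mertk was removed. In the other microglia the Axl fold was -3.69 (SE 0.30, edgeR adjusted p = 0.119). Axl lies at chr7:25757273-25788705 and Mertk at chr2:128698956-128802894. Without AD 1 Axl fell below the count filter and was not tested, and with limma-voom its log2 fold was -4.87 (adjusted p = 0.386).

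Gatm, which encodes the enzyme of the first step of creatine synthesis, was the only other gene called. It was at 9.59, 0, 140.4 and 90.7 CPM, 3 UMIs in AD and 79 in ADAM, and its log2 fold was 3.82 with an SE of 0.62 (edgeR, adjusted p = 0.0172), and both ADAM libraries lay above both AD libraries. Together the 2 calls are 0.0572% of the 3496 genes tested, and 144 (4.12%) had an unadjusted p under 0.05. Gatm lies on chromosome 2 at 122594467-122611303 of GRCm38, the chromosome that also holds Mertk. The same contrast called Gatm in the other microglia (2.99, edgeR adjusted p = 0.000386, 0.0422% of 11861 genes called) and in Monocytes (2.68, adjusted p = 0.0379, 0.170% of 6460 called). These fits use the same libraries. DESeq2, limma-voom and the cells of at least 2000 UMIs gave state 6 log2 folds of 4.01, 3.76 and 3.82 for Gatm without calling it.

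The genes that lead state 6 were not called between genotypes. The log2 ratio of ADAM over AD was 0.02 with an SE of 0.18 for H2-Aa (edgeR, adjusted p = 0.999), 0.11 for H2-Eb1, 0.11 for Cd74 and -0.05 for H2-Ab1. In Monocytes of the same libraries H2-Aa had -2.11 (SE 1.40, edgeR adjusted p = 0.815). Of the 8 class II chains tested in state 6, 5 had a positive and 3 a negative fold, with a median of 0.03 and 0 called, beside a median of 0.00 over all genes. Ly6c2 had -1.04 (SE 0.26, edgeR adjusted p = 0.363), with both ADAM libraries below both AD libraries. It passed the threshold when AD 2 was left out (-1.20) and when ADAM 2 was left out (-1.56), where the lone library of a group was taken to vary like the pair of the other. The 31 DAM genes tested had a median fold of 0.03 with Axl called, and the 19 homeostatic genes -0.09 with 0 called. Apoe (-0.74, SE 0.18, edgeR adjusted p = 0.363) and Wfdc17 (-0.81, SE 0.18, adjusted p = 0.238) had negative folds that did not pass the threshold. Apoe passed it without AD 1 (-0.92), without ADAM 2 (-1.02) and with a replicate block (-0.75), and Wfdc17 without AD 2 (-1.05).

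**Figure D5:**
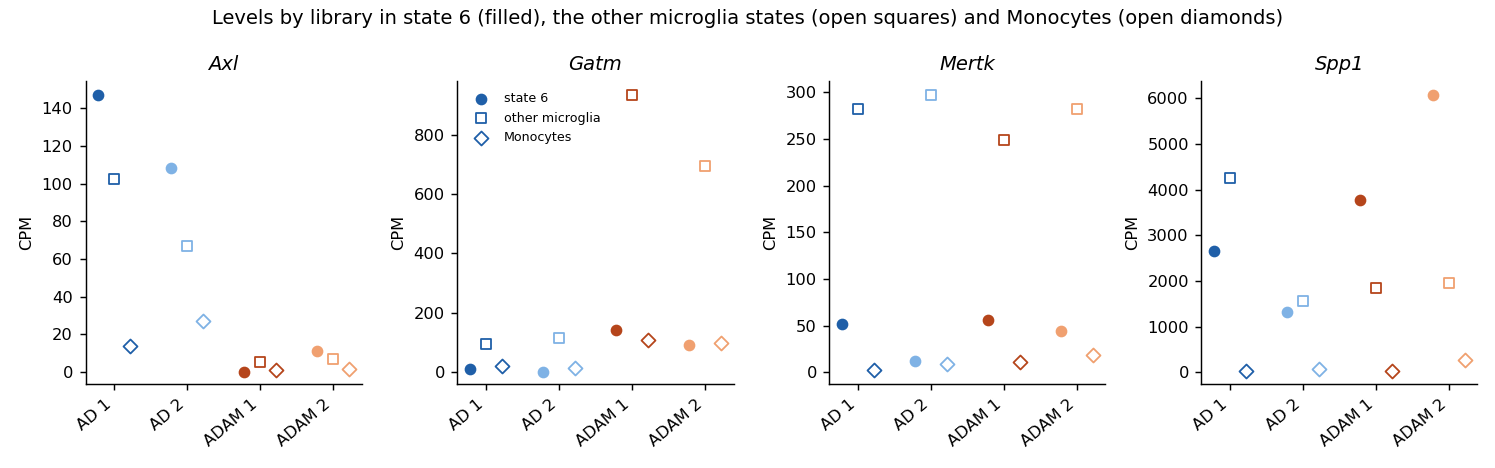
Levels in CPM (y, linear) of Axl, Gatm, Mertk and Spp1 by library (x) in state 6 (filled circles), the other microglia (open squares) and Monocytes (open diamonds). Axl is lower and Gatm higher in both ADAM libraries of state 6, and Spp1 is highest in ADAM 2.

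Whether the genotype difference itself differed between state 6 and the other microglia was tested with an interaction term over the 8 sums, with library as a term. The other-microglia sums mix states 0 to 5 in shares that differ by library. State 5 made up 594 of 1555 of their cells in AD 1, 722 of 3091 in AD 2, 631 of 2288 in ADAM 1 and 771 of 2013 in ADAM 2. The part of this mixture in the interaction was not tested. The interaction was called for 8 of 10887 genes (0.0735%), 3 with a higher and 5 with a lower ADAM over AD difference in state 6, and 358 had an unadjusted p under 0.05. Spp1, which encodes osteopontin, had the lowest p. Its levels were 2662, 1322, 3768 and 6077 CPM in state 6 and 4261, 1566, 1838 and 1959 in the other microglia, a log2 interaction of 1.92 with an SE of 0.19 (edgeR, adjusted p = 1.85e-19). State 6 was thus below its own library's other microglia in AD 1 and AD 2 and above them in ADAM 1 and ADAM 2. State 5 was at 8442, 4892, 4973 and 3944 CPM, above state 6 in AD 1, AD 2 and ADAM 1. A single ADAM 2 cell held 1282 of the 2748 Spp1 UMIs of state 6 in that library (46.7%). In ADAM 1, 1 cell held 368 of 1020 (36.1%) and the 5 highest cells 90.6%. The highest cell held 19.0% in AD 1 and 73.6% in AD 2. The test saw only the sums per library, with an estimate of spread that edgeR shares across genes. Its p therefore does not reflect how few cells held these UMIs. Within state 6 alone the Spp1 fold was 1.27 (SE 0.39, edgeR adjusted p = 0.999). It passed the threshold without AD 1 (1.96), AD 2 (0.89) or ADAM 1 (1.63), not without ADAM 2 (0.87), and over all 4 libraries with no filter on low counts (1.39). The interaction was not called for Axl (-0.44), Gatm (0.93) or Ly6c2 (-1.30, edgeR adjusted p = 0.179), although Ly6c2 was called without AD 1 (-2.84) and over cells of at least 2000 UMIs (-1.64). The interaction of H2-Aa was 0.58 (edgeR adjusted p = 0.647) and was called without AD 2 (0.89), as were those of Cd74 (0.89), H2-Eb1 (0.94) and H2-Ab1 (0.77).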

How the data were processed

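CD45+ cells from 4 libraries were profiled with 10x 3′ chemistry, per the labels' protocols. Build mm10, Seurat 3.2.1.9002 and Cell Ranger 3.1.0 appear without roles in the submitters' processing notes. The sources used here do not give what each did. Deposited by the authors were raw UMI counts of 16798 genes and a cell table with class, state, library, percent of mitochondrial counts and a doublet score, used as they stand. The members and the 31 gene lists were chosen with earlier results of these data known.

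Counts were summed per library and set. Levels are CPM, and ratios are log2 ratios of library means with a pseudocount of 10 CPM, for genes with a mean of at least 10 CPM over the compared sets. Genotypes were compared on sums with edgeR 4.0.16 (R 4.3.3; TMM, glmQLFit, minimum count 10, Benjamini-Hochberg at 0.05). Alternatives were DESeq2 1.42.0, limma-voom 3.58.1, no TMM, a minimum count of 5, no filter, cells of at least 2000 UMIs, a replicate block and leaving out each library, and for levels pooled UMIs, thinned cells, a pseudocount of 1 CPM and state 0 alone as reference. The edgeR steps were tested on counts simulated at the depth of state 6 with an assumed spread between libraries. They called 13 of 92 changes of 2-fold, 65 of 82 of 4-fold and 1 unchanged gene, so most 2-fold changes were missed. Doublets marked by the authors were absent from state 6. Genes were named by level in each list, by the 20 highest and 10 lowest ratios over other microglia (10 and 10 over Monocytes; at least 100 CPM, same direction in 4 libraries), and by calls. Promoters came from RefSeq, and 16580 gene symbols matched exactly 1 gene in GENCODE vM21. Some genes of the lists and of the named set are not reported here.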

Additional observations from a re-analysis of the deposited data

Results flagged for a closer look

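The ADAM over AD difference in state 6 differed from that in the other microglia, by the edgeR interaction test over 8 sums, for 8 genes. The other-microglia sums mix states in shares that differ by library, and the part of that mixture was not tested. All values below are log2 interactions with their adjusted p, and levels are CPM in the order AD 1, AD 2, ADAM 1 and ADAM 2. The p-values rest on sums per library and a spread shared across genes, and do not reflect how few cells held the UMIs.

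Spp1 (osteopontin) had 1.92 (SE 0.19, edgeR adjusted p = 1.85e-19), with the levels given above. It was called in each of the 4 fits that left out a library, and without ADAM 2 it was the only gene called. Gm1673, a predicted gene, had 1.43 (SE 0.27, edgeR adjusted p = 0.000172), at 227, 156, 255 and 338 in state 6 and 375, 124, 152 and 169.5 in the other microglia. Slpi, the secreted leukocyte protease inhibitor, had -4.03 (SE 0.70, edgeR adjusted p = 2.69e-05), at 147, 48.1, 14.8 and 31.0 in state 6 and 0.847, 2.73, 0.970 and 12 in the other microglia. The Slpi levels of state 6 rest on 46, 4, 4 and 14 UMIs, in 16 of 130 cells. S100a6 had -1.77 (SE 0.32, edgeR adjusted p = 0.000102), at 316, 469, 207 and 309.6 in state 6 and 20.2, 6.75, 17.3 and 53.9 in the other microglia. Both Slpi and S100a6 were above the other microglia in all 4 libraries, by less in ADAM 2 than in AD 1. Slpi and Gm1673 were not called without AD 1 (-2.15 and 0.72) or without ADAM 2 (-1.98 and 1.26), and S100a6 was not called without AD 2 (-1.01) or without ADAM 2 (-1.13).

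Socs3, a feedback inhibitor of cytokine signalling, had -1.30 (SE 0.28, edgeR adjusted p = 0.00777), at 205, 289, 133 and 113 in state 6 and 220.4, 301, 256 and 403 in the other microglia. Hp (haptoglobin) had -4.02 (SE 0.89, edgeR adjusted p = 0.00887), at 76.7, 24.0, 11.1 and 17.7 in state 6 and 1.33, 0.925, 1.59 and 8.84 in the other microglia. The Hp levels of state 6 rest on 24, 2, 3 and 8 UMIs, in 21 of 130 cells. Neither Socs3 nor Hp was called without AD 1 (-1.25 and -3.09) or without ADAM 2 (-0.80 and -2.68). The part of the ADAM 2 neutrophil transcripts in these values was not tested.

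Cxcl9 and Ttr rested on still fewer cells than Slpi and Hp. Cxcl9, a chemokine induced by interferon gamma, had -14.01 (SE 2.05, edgeR adjusted p = 4.19e-07), and all 40 of its state 6 UMIs came from 1 cell of AD 1. Ttr (transthyretin, a choroid plexus product) had 12.99 (SE 2.43, edgeR adjusted p = 0.000172) on 7 UMIs in 6 ADAM 2 cells, while its level in the other microglia was 692, 0, 0 and 65.8. Neither was called without AD 1 or without ADAM 2. These 2 folds involve sums of 0 and depend on the prior count, so they are no bound on a change.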

How the results depend on the processing

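The 9 cells of AD 2 limit what state 6 can show, and with 2 libraries per genotype 1 library can decide a call. Genotype calls in state 6 numbered 2 as reported, 1 with DESeq2, 8 with no filter, 1 with cells of at least 2000 UMIs, 0 with limma-voom (208 at an unadjusted p under 0.05) and 7 to 20 when 1 library was left out. Those last fits take the lone library of a group to vary like the other group. Interaction calls numbered 8 as reported, 1 with DESeq2 and 1 to 17 with a library left out (1 without ADAM 2). Leaving out libraries for the Monocytes, the other microglia and co-detection was added after seeing the data. Monocyte calls ran from 0 (without AD 1 or AD 2) to 269 (without ADAM 1) against 11, and those of the other microglia from 7 to 94 (without ADAM 1) against 5. The log2 difference in share ran from -0.68 to 2.58 around 0.23. Genes over 100 CPM with a ratio of at least 4-fold, higher in every library, numbered 54 against state 0 alone instead of 17, and co-detection of Ly6c2 and P2ry12 was 7.75% of thinned cells instead of 23.8%.

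The sign of small folds changed. H2-Aa had a log2 fold of -0.0022 with limma-voom and -0.23 to 0.37 with a library left out, H2-Eb1 -0.068 to 0.37, Cd74 -0.023 to 0.27 and Mertk -0.074 to 2.03. The Ttr interaction ran from -1.94 to 14.97. Of the 135 alternatives for named genotype folds, 107 kept direction and side of the threshold, as did 51 of 72 for the interaction, and 365 of 408 level ratios moved by less than 1 SD. The causes were not tested.

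The data gave no sign that the replicate numbers pair the libraries: same-numbered deviations correlated at 0.028 in state 6 and -0.188 in the other microglia. With only 9 cells in AD 2, the state 6 value cannot decide this. With the replicate block, 3 genes were called in state 6 (Axl, Apoe and Gatm) and the log2 difference in share was 0.82.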

Other observations

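Cck, the neuropeptide cholecystokinin, was looked at after its values were seen. It had a UMI in 36 of 130 state 6 cells (27.7%, exact binomial interval 20.2 to 36.2%), 11.4% of state 5, 1.05% of state 0, 0.355% of Monocytes and 0.245% of T and NK cells. After thinning to 2000 UMIs the shares were 15.5% in state 6 and 6.99% in state 5. The libraries held 17 of 45, 2 of 9, 5 of 29 and 12 of 47 cells with a Cck UMI.

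The higher B cell sum of state 6 came from immunoglobulin genes. Iglc2, a lambda light chain constant region, was at 95.9, 144, 7.39 and 97.3 CPM in AD 1, AD 2, ADAM 1 and ADAM 2, with 88 UMIs in 26 cells, against a mean of 0.28 CPM in the other microglia. Ighm, the heavy chain of IgM, was at 336 ± 47.2 CPM (SD, n = 4) against 205. The B cell receptor component Cd79a was at 0.55 CPM, and Igkc, the kappa chain, at 3.01. In chemokines, Ccl3 and Ccl4 were at 1109 and 1666 CPM against 751 and 1073 in the other microglia, and Ccl12 at 152 against 300.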
